A study of Mus musculus with 16 samples.

Results

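Hopx, the gene of the homeodomain-only protein, and Hopxos, the antisense gene that lies inside it, were followed through whole colon tissue with and without colitis, in mice with and without Smarcad1 in the gut epithelium. The pair was picked by symbol from the deposited tables, after its values had been seen, and makes up 2 of the 5171 distinct genes that those tables list. Both genes had their lowest level in wild type (WT) colitis, and during colitis both were higher in the knockout (KO), Hopx by 1.46-fold and Hopxos by 1.52-fold. Hopxos stayed close to 24% of the Hopx level in every group.

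HOPX is an unusual homeodomain protein that has lost the contacts other homeodomains use to bind DNA. It acts through partners instead, among them serum response factor (SRF) and histone deacetylases, and it was first studied in the developing heart. In the intestine Hopx is known as a marker of slow-cycling stem cells near the crypt base and of cells that repopulate the crypt after injury. A gene whose symbol ends in "os" is transcribed from the opposite strand to the gene it is named after, and Hopxos has no known protein product.

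Bulk RNA-seq was done on colons of male C57BL/6 mice, all of which had an enriched microbiota passed on from donor mice of another facility. KO mice carried loxP-flanked Smarcad1, which encodes a chromatin remodelling ATPase, and a Cre recombinase under the villin promoter, which is active in gut epithelium and not in the muscle, stroma or immune cells of the same piece of tissue. For colitis, mice drank water with 1% dextran sodium sulphate (DSS), which injures the colon lining, over 15 days, and the microbiota transfer began 2 weeks before. Each genotype had 3 untreated libraries and 5 from colitis, and the labels do not say whether each came from a mouse of its own.

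The deposited tables hold the authors' mean of each group on the log2 scale in RPM (reads of a gene scaled to a fixed library total). Values of single libraries, which the study lists in its supplement, were not used here, so no SD and no test is given for any value below and the spread between mice was not analysed. The intervals cover the counting of reads only. They were computed from the geometric mean library size, which the steps between the lowest means fix at 8.005 to 10.1 M reads. Smarcad1 itself fell by 1.18 in control and by 1.13 in colitis on the log2 scale in the libraries labelled KO.

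Hopx (ENSMUSG00000059325.14, protein coding) lies on the minus strand of chromosome 5 from 77086988 to 77115121 in GRCm38, a span of 28134 bases. Hopxos (ENSMUSG00000087541.1, antisense) lies on the plus strand from 77094532 to 77102303, and its 7772 bases fall wholly inside the Hopx span. GENCODE M21 gives Hopx 3 transcripts. Hopx-201 starts at 77115121, while Hopx-202 and Hopx-203 start further on, at 77095277 and 77095253. All 3 code for the same 219 bases, and the latter 2 start inside the first exon of Hopxos.

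The exons of the pair also overlap. Exon 1 of Hopxos (77094532 to 77095983, 1452 bases) covers 412 bases of Hopx exons, among them the whole exon of 157 bases from 77094866 to 77095022 that Hopx-201 and Hopx-202 share. The part of a Hopx transcript that lies inside Hopxos exons is 12.5% for Hopx-201, 25.5% for Hopx-202 and 31.9% for Hopx-203. In the other direction, 24.8% of Hopxos exon bases lie under Hopx exons. Most of the coding sequence is in this overlap, 144 of 219 bases, and it is shown here because reads from these bases can belong to either gene. It is written on the Hopx strand (GRCm38, chr5:77094866-77095009, minus), with the start codon in capitals, and its reverse complement is found from position 335 of the 1661-base Hopxos transcript.
Hopx coding part shared with Hopxos: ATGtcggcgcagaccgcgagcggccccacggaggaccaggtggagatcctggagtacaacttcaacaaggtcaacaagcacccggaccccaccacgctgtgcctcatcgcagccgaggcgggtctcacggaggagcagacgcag

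**Figure D1:**
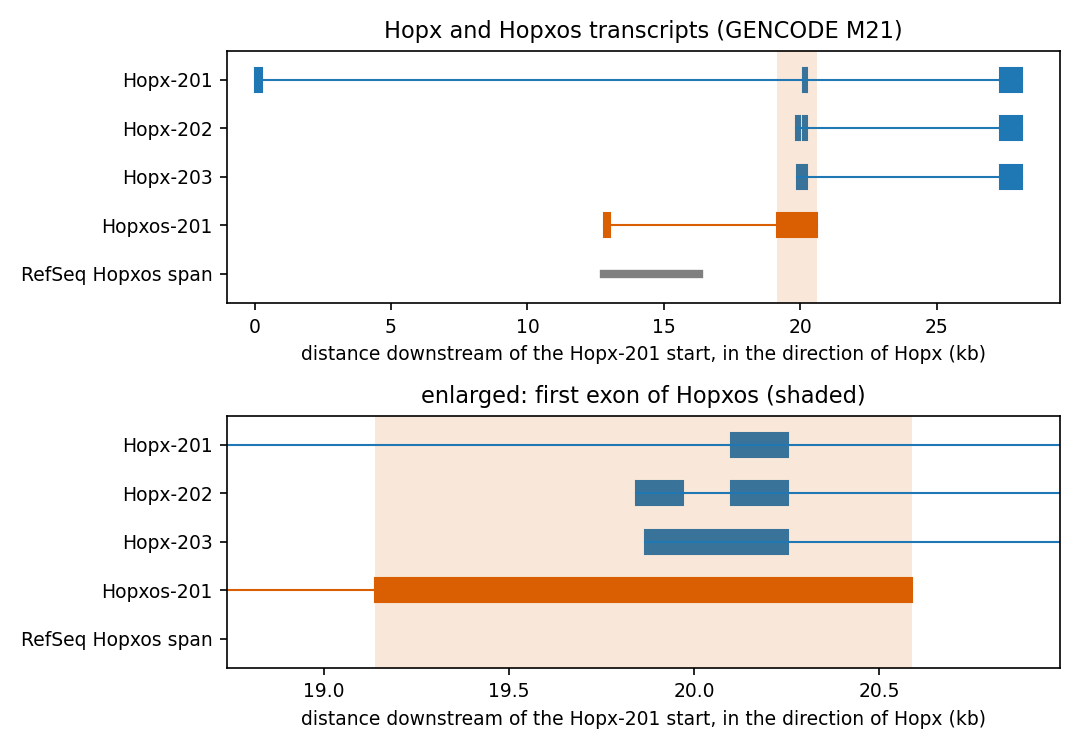
Exons (boxes) and introns (lines) of the 3 Hopx transcripts (blue) and of Hopxos (orange) by distance in kb from the start of Hopx-201, in the direction in which Hopx is read, with the RefSeq span of Hopxos in grey. The lower panel enlarges the shaded first exon of Hopxos, which holds 412 bases of Hopx exons and the starts of Hopx-202 and Hopx-203, while the RefSeq span ends short of it.

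RefSeq draws Hopxos differently, from 77098830 to 77102313, and on that model none of its span lies under a Hopx exon (0 bases). The spans in the deposited tables are those of GENCODE. Whether reads were assigned by strand is not stated in the sources used here, so reads from the overlap and their gene of origin cannot be told apart.

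The promoters of the pair are shown because both genes moved in the same direction between groups. These are the 250 bases before each RefSeq start in GRCm38.p6, 5′ to 3′ on the gene's own strand, and capitals mark matches to a motif on either strand. The motifs searched were the CArG box (the site named for serum response factor), TATAAA (the TATA box), CCAAT (the CCAAT box, which reads ATTGG on the other strand), GGGCGG (the GC box), CACGTG (an E-box) and TGAGTCA (an AP-1 site).
Hopx, distal start, chr5:77115124-77115373, minus: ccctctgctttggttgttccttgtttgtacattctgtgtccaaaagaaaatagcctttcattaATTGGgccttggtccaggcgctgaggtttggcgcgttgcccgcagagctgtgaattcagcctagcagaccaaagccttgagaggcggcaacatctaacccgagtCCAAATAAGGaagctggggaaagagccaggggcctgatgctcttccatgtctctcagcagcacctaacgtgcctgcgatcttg
Hopx, internal start, chr5:77095268-77095517, minus: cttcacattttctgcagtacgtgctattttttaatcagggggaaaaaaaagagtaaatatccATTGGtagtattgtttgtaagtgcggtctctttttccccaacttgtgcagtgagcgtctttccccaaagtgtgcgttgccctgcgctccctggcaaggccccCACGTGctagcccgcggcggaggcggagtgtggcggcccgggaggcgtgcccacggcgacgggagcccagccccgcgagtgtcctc
Hopxos, chr5:77098580-77098829, plus: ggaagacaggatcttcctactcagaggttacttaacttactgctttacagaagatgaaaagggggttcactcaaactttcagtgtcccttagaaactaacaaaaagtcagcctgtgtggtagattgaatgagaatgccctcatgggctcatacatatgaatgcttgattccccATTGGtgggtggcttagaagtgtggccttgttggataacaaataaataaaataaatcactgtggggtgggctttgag

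The distal Hopx window holds a CArG box, which 1.47% of 32851 windows of the same length also hold. The internal Hopx window holds CACGTG, found in 6.02% of all windows. CCAAT on the opposite strand is the match that all 3 windows have, and 33.8% of all windows have it on 1 strand or the other. None of the 3 windows holds TATAAA (12.4% of all windows), GGGCGG (32.7%) or TGAGTCA (4.46%). The internal Hopx window lies in the first exon of GENCODE Hopxos, has a GC content of 57.6% and has 18 CpG. The distal window has 52.4% GC, the median of all windows, with 8 CpG. The Hopxos window has 42.0% GC and 0 CpG, but it lies in the intron of the GENCODE model. A letter match is a description, and binding of any factor was not measured.

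Hopx had a group mean of 6.15 log2 RPM in WT control, 6.37 in KO control, 5.83 in WT colitis and 6.37 in KO colitis. In RPM these were 71.2, 82.9, 56.8 and 82.6, which correspond to 721, 809, 454 and 815 reads per library. Both KO groups were thus highest and next to each other, WT control came below them, and WT colitis was lowest. The 95% counting intervals of the KO groups overlapped, and those of the other neighbours in this order did not.

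Hopxos had a group mean of 4.10 log2 RPM in WT control, 4.41 in KO control, 3.72 in WT colitis and 4.32 in KO colitis. This was 17.1, 21.2, 13.1 and 19.9 RPM, from 173, 207, 105 and 197 reads per library. The order of the groups was that of Hopx, again with overlapping counting intervals for the KO groups alone. The interval of KO colitis (4.23 to 4.41) and that of WT control (3.97 to 4.22) lay close together.

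**Figure D2:**
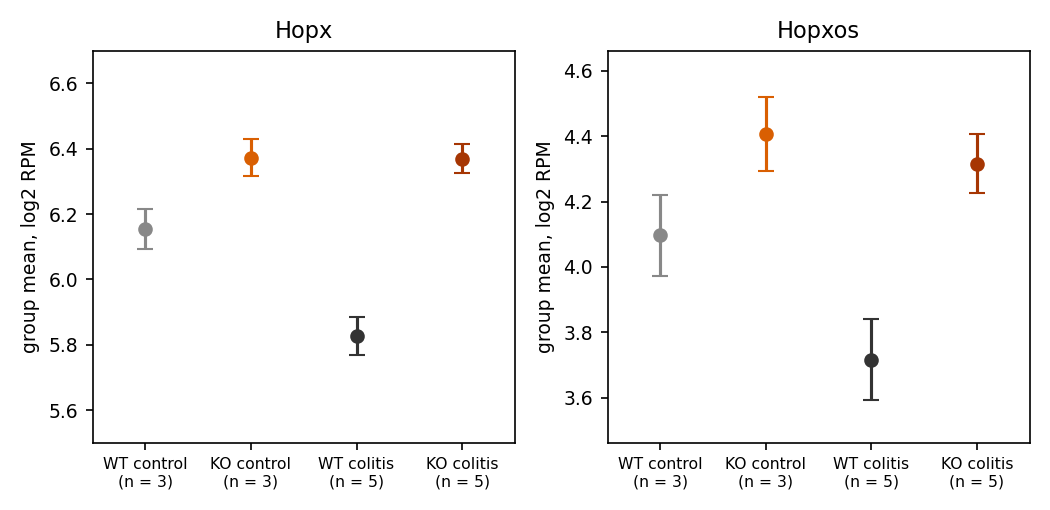
Group means of Hopx (left) and Hopxos (right) in log2 RPM, with bars for the 95% counting interval and the number of libraries under each group. Each panel spans the same range of log2 units, and in both WT colitis is lowest (5.83 and 3.72) and KO control and KO colitis are highest.

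Per kb of exon, Hopx had 47.0, 54.7, 37.4 and 54.5 RPM and Hopxos 10.3, 12.8, 7.91 and 12 RPM in the same order of groups. Among the 5171 listed genes Hopx was a moderately abundant gene, above 58.7% of them in WT colitis and above 67.8% in KO control on the RPM scale. Hopxos was above 31.7% and 41.2% in the same groups.

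In colitis the question is how KO and WT differ in the injured colon, which includes any difference already there without injury. Hopx was higher in KO than in WT by 0.54 on the log2 scale (counting interval 0.47 to 0.62). Hopxos was higher in KO by 0.60 (0.45 to 0.75). Both genes are in the authors' table of genotype differences in colitis, 2 of the 36 genes listed there as higher in KO, and 0.696% of all listed genes are. The pair was chosen with this difference in view, so nothing is read from that count. Hopxos was 30th and Hopx 31st among these 36 genes by size, whose median was 1.20 and whose smallest difference was 0.32 (Cpq). In 239 of 5171 genes (4.62%) KO was above WT by at least the difference of Hopx, and in 198 (3.83%) by at least that of Hopxos. With genes at low read counts left out, 157 reached the value of Hopxos. Counting both directions, 13.8% of listed genes had a larger absolute difference than Hopx and 11.7% a larger one than Hopxos.

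In control colon the same contrast was smaller. Hopx was higher in KO by 0.22 (0.13 to 0.30) and Hopxos by 0.31 (0.14 to 0.48). Neither gene is in the authors' table for this contrast, which lists 0.89% of the genes. The median over all listed genes was 0.00 in control and −0.01 in colitis.

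In WT, where the question is what colitis does to a normal colon, Hopx had a difference between colitis and control of −0.33 (−0.41 to −0.24) and Hopxos of −0.38 (−0.56 to −0.21). In KO the difference was −0.00 (−0.08 to 0.07) for Hopx and −0.09 (−0.24 to 0.05) for Hopxos. Neither gene is in the authors' table of colitis changes in WT, which holds 63.1% of all listed genes, nor in that in KO, which holds 78.4%. A larger absolute difference than that of Hopx was held by 76.1% of listed genes in WT and 99.9% in KO, most of which are listed because they passed a colitis comparison, so a gene that did not pass one ranks low among them. The median listed gene was itself 0.13 higher in colitis in WT and 0.19 higher in KO. Relative to that median, Hopx was at −0.45 in WT and −0.20 in KO, and Hopxos at −0.51 and −0.28. On this scaling, as on the deposited one, WT moved further down than KO.

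The response to colitis was higher in KO than in WT by 0.32 (0.21 to 0.44) for Hopx and by 0.29 (0.06 to 0.52) for Hopxos, against a median of −0.02 over all listed genes. This difference of differences was not tested, since group means alone were used here. It is made from the same 4 group means as the contrasts above, and the genotype contrast in colitis shares the WT colitis libraries with the colitis contrast in WT.

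**Figure D3:**
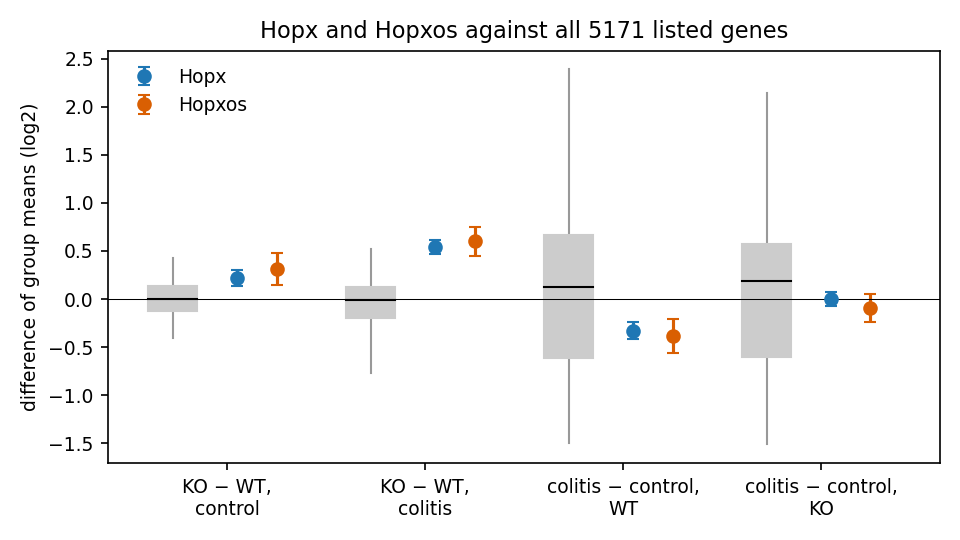
Differences of group means (log2) of Hopx (blue) and Hopxos (orange) with 95% counting intervals, in 4 contrasts that share groups. The grey box spans the middle 50 percent of the 5171 listed genes, its thin line the 5th to 95th percentile and its black bar the median. Both genes sit above the 95th percentile for KO against WT in colitis alone.

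The ratio of Hopxos to Hopx varied little across the groups. Hopxos was at 24.0% of the Hopx RPM in WT control (counting interval 21.8 to 26.4), 25.6% in KO control (23.4 to 28.0), 23.1% in WT colitis (21.1 to 25.5) and 24.1% in KO colitis (22.5 to 25.8). All 4 intervals overlapped. On the log2 scale the gap ranged from −2.11 to −1.97, a spread of 0.15, while Hopx itself moved by 0.55 between its lowest and highest group. Per exon length the ratio was 21.1% to 23.4%. These ratios lie beside the shares of a Hopx transcript that fall inside Hopxos exons, 12.5% to 31.9% by transcript and 27.2% of the merged Hopx exons. How many of the Hopxos reads came from Hopx RNA was not tested.

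The pair was set beside other overlapping genes on opposite strands. Of the listed genes, 307 such pairs had more than 3 reads per library for both genes in every group. Without that floor there were 332 pairs. In 161 of the 332 both genes are in the authors' table of colitis changes in WT, and in 233 both are in that of KO. Those tables hold 63.1% and 78.4% of all listed genes, so many pairs with both genes in them would arise without any relation between partners. Each table of genotype differences holds both genes of 1 pair, which in colitis is Hopx with Hopxos. The pair was chosen with that in view, so nothing is read from it. Partners had the same sign of the genotype difference in colitis in 205 of 307 pairs (66.8%, against 50.1% if listed genes were unrelated). Among pairs with a gene model for both, where exons overlapped by at least 20% of the shorter gene, as the 27.2% of the Hopx pair does, this was 90 of 122 pairs, with a median gap between partners of 0.09. With less exon overlap it was 102 of 167 pairs, with a median gap of 0.16. Of these 167, 43 pairs had no exon overlap, 22 of them with the same sign, and a median gap of 0.30. Several of the 43 share 1 gene, Gm20388, so they are not separate observations. The gap of the Hopx pair was 0.06, and 46 of the 122 pairs had one as small. Over the 4 groups, the spread of the level difference within a pair had a median of 0.24 for the 122 pairs and 0.51 for the 167 with less exon overlap. The 0.15 of the Hopx pair was reached or undercut by 33 of the 122 (27.0%) and by 18 of the 167 (10.8%).

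**Figure D4:**
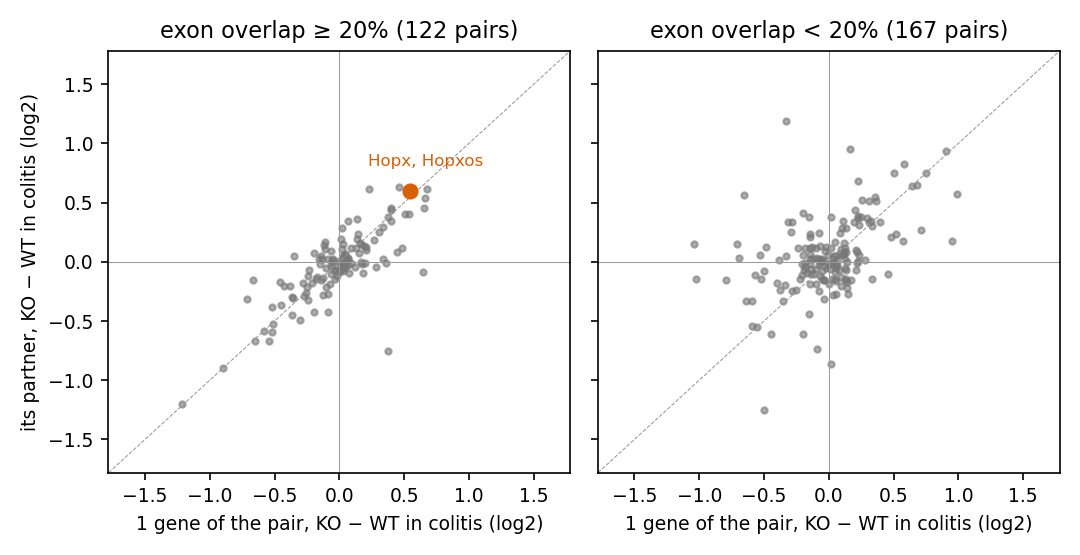
KO minus WT difference in colitis (log2) of each gene and its partner on the opposite strand, for 122 pairs whose exons overlap by at least 20% of the shorter gene (left) and 167 with less (right). The dashed line marks equal differences. Hopx and Hopxos (orange, 0.54 and 0.60) lie near it at the upper right, and points at the right scatter more widely around it.

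By name, 33 listed genes carry an antisense suffix and 17 of them have their partner listed as well. The spread of the level difference over the 4 groups was 0.09 for Rbm3os, 0.10 for Plet1os, 0.13 for Foxd2os and then 0.15 for Hopxos, the fourth smallest of the 17. Plet1os also resembled Hopxos in its share, a mean of 21.8% of the level of Plet1 (a surface protein of placenta and epithelium), but had the opposite genotype direction in colitis (−0.67, with −0.65 for Plet1). Foxd2os kept its level relative to Foxd2 with 0 bases of exon overlap. At the other end, Plxna4os1 had a spread of 2.99 against Plxna4, and Sorbs2os 1.27 against Sorbs2. Both antisense genes fell below 3 reads per library in a group, so these spreads rest on very few reads. Plxna4os1 was at −2.34 log2 RPM in KO control and Sorbs2os at −1.45 in WT colitis. Antisense genes higher in KO in colitis, with a partner also higher, included Dhx58os (0.51, with 0.31 for Dhx58, an RNA sensor), Anxa11os (0.38, with 0.22 for Anxa11) and Rbm3os (0.30, with 0.33 for Rbm3, a cold-inducible RNA-binding protein). Both partners were higher in KO in colitis in 7 of the 17 pairs, and partners had the same sign in 11.

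Of the genes around the pair, the tables list 4 within 1 Mb, none of them in a table of genotype differences. Aasdh, 181474 bases away, had a KO minus WT difference in colitis of 0.04, C530008M17Rik one of −0.01 and Igfbp7, a secreted protein of vessels and stroma, one of −0.23. Nmu, the gene of the neuropeptide neuromedin U at 723200 bases, had 0.56, a value between those of Hopx and Hopxos, and −0.61 in control. Like the pair, it had its lowest level in WT colitis, at only 1.00 log2 RPM. Unlike the pair, it was highest in WT control (3.06), and its colitis minus control difference was −2.07 in WT and −0.90 in KO.

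The listed genes were then ranked by how near their 4 group means, each centred on its own average, lay to those of Hopx. Of 4896 genes, Idh2 was nearest (distance 0.05 log2) and Hopxos second (0.10). Seen from Hopxos, Hopx ranked 1st and Idh2 second (0.13). Idh2 encodes the mitochondrial NADP-dependent isocitrate dehydrogenase, and its group means were 7.78 (WT) and 8.0 (KO) log2 RPM in control and 7.48 and 7.95 in colitis. Its KO minus WT difference was 0.22 in control and 0.48 in colitis.

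After these came Txndc16, Bckdha, Gcdh, Nipsnap2, Kyat3, Acss2, Nr3c2 and Kcnq1. Bckdha and Gcdh encode mitochondrial enzymes of branched-chain amino acid and of lysine and tryptophan breakdown, and they were higher in KO in colitis by 0.37 and 0.35. Kyat3, a kynurenine aminotransferase, had 0.64, and Acss2, which makes acetyl-CoA from acetate, had 0.51. Nr3c2, the mineralocorticoid receptor, had 0.31, and the epithelial potassium channel gene Kcnq1 had 0.46. Txndc16 (0.52) and Nipsnap2 (0.34) are, like Idh2 and Kyat3, in the authors' table of genes higher in KO in colitis. That table holds 0.696% of all listed genes. The ranking picked these genes on the same 4 means, so their genotype direction follows from it and nothing is read from either. The lists nearest to Hopx and to Hopxos had 4 genes in common. Besides these, Hopxos had Gmpr (0.59), Lrig3 (0.55), Clic6 (0.80), St6galnac4 (0.51) and Mycl (0.49) among its nearest 10. Distances rest on 4 points from shared libraries.

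**Figure D5:**
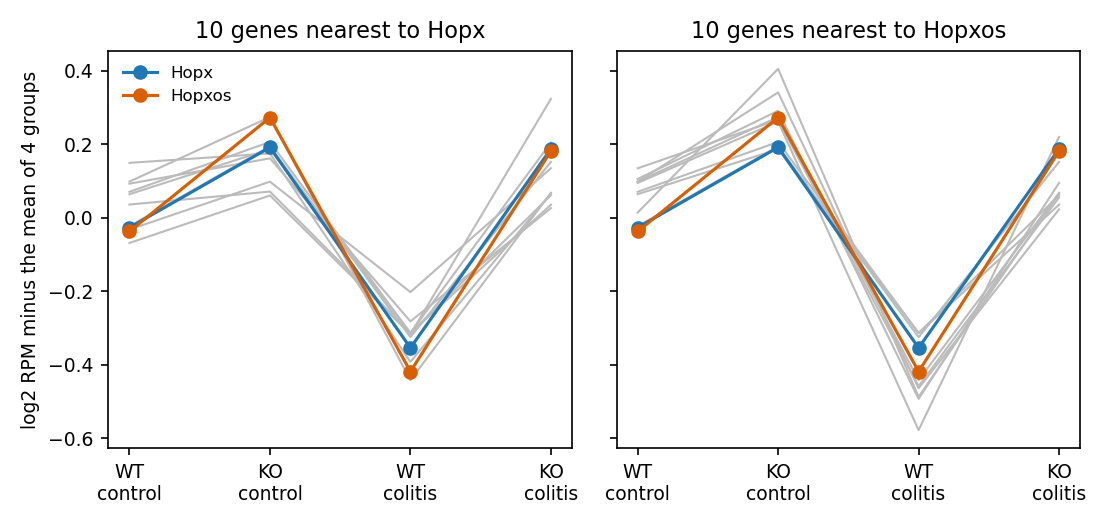
Group means of Hopx (blue), Hopxos (orange) and the remaining genes of the nearest 10 (grey), in log2 RPM minus the gene's mean over the 4 groups, for the genes nearest to Hopx (left) and to Hopxos (right). Every line has its lowest point in WT colitis, which a ranking on these means favours, and Hopx and Hopxos nearly coincide.

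HOPX works through partner proteins, but none of the 7 partner genes looked up (Srf, Hdac2, Gata4, Gata6, Epc1, Smad1 and Smad5) is in any of the tables, so their levels were not analysed here. Of 10 targets of serum response factor 1 is listed, Cyr61, the gene of a matricellular growth factor, which was 1.15 higher in colitis in WT, 0.49 higher in KO, and had a KO minus WT difference in colitis of −0.85.

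Genes of the cells that Hopx is known to mark were read next. Of 6 markers of slow-cycling stem cells, other than Hopx, the tables list Dclk1, also a tuft cell gene. It had a colitis minus control difference of −0.85 in WT and −0.61 in KO and a genotype difference in colitis of −0.10, beside 0.54 for Hopx. Of 14 crypt base stem cell genes 7 are listed, with a median genotype difference in colitis of 0.08, and none of the 7 is in the table of genotype differences. Ascl2, a Wnt-dependent stem cell factor, was at 3.75, 3.37, 1.91 and 2.75 log2 RPM in control WT and KO and in colitis WT and KO, a genotype difference in colitis of 0.84. Axin2 (0.46) and Tnfrsf19 (0.53), both Wnt targets, were also higher in KO in colitis but lower in colitis than in control in KO (−0.81 and −1.10). Prom1 went the other way (−0.70), as did Cd44 (−0.33) and Nkd1 (−0.21), while Smoc2 had 0.08. Of 10 genes of regenerating epithelium 6 are listed, with a median genotype difference in colitis of −0.22. Among them Ereg (−1.36) and Il33 (−0.83) were lower in KO, and Clu was 0.22 higher.

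In whole tissue, fewer cells of a type and less RNA per cell cannot be told apart, so the makeup of the samples is given beside the Hopx values. The 9 listed of 14 surface colonocyte genes summed to 18240 RPM in WT and 17916 RPM in KO control, and to 13031 and 13210 RPM in colitis. Muc13 alone of the 9 was higher in colitis (0.70 in WT and 0.64 in KO), so the sums understate the fall of the others. The median colitis minus control difference of the 9 was −0.86 in WT and −0.63 in KO. In colitis, Car2 was 0.80 and Aqp8 0.59 higher in KO, while Car1 (−0.81) and Guca2a (−0.70) were lower, and Car2 alone of the 9 is in the authors' table of genotype differences. The 6 listed of 11 smooth muscle genes summed to 6100, 5598, 3905 and 3862 RPM in the same order, and the 8 leukocyte and myeloid genes to 225, 225, 569 and 446 RPM. These 8 did not move together between genotypes in colitis. S100a9 (−2.77), S100a8 (−2.66), Cxcr2 (−1.67) and Itgam (−0.39) were lower in KO. Ptprc (0.08) and Adgre1 (0.13) were slightly higher, and Cd68 (−0.00) and Csf1r (−0.08) differed little. None of the 8 is in the authors' table of genotype differences. The 12 listed of 13 T and NK cell genes summed to 20.9, 20.6, 93.7 and 87.5 RPM. The goblet cell list had 1 of 7 genes in the tables, Clca1 (a genotype difference in colitis of −0.24 and in control of −0.82). None of 7 general epithelial genes, Epcam and Vil1 among them, is in the tables, so the epithelial share of the tissue was not analysed here. Surface colonocyte and muscle sums were lower in colitis in both genotypes and the leukocyte sums higher, and the part of these shifts in the Hopx values was not tested.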

How the data were processed

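RNA was taken from whole colon according to the sample labels (the series text names small intestine), and lithium chloride precipitation was used to remove DSS. According to the labels and the study's methods, the authors mapped reads with HISAT2 (2.1.0) to GRCm38, removed reads over ribosomal RNA, counted reads over exons in SeqMonk and ran DESeq2 on 2 groups per comparison. The labels give single-end reads of 100 bases, whereas the study's methods give paired-end reads. Strand use in counting is not given in the sources used here. The 4 deposited tables hold genes at an adjusted p-value of 0.05 or less in 1 comparison, the authors' adjusted p-value (neither used nor printed) and the authors' group means as log2 RPM, without length correction. A gene is called listed if it is in a table.

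The members and gene lists were chosen with earlier results of these data known. Differences are between the deposited log2 means. Library size was recovered from the steps of the lowest means, all of which lay on them (76 and 73 means in the WT and KO controls, 20 and 21 in WT and KO colitis), with a count of 0 taken as 0.9 read. Counting intervals (95%, normal, Poisson error of the log) treat reads as independent. A floor of 3 reads per library was used for the nearest genes and the overlapping pairs, but not for the antisense pairs by name. Gene models came from GENCODE M21 (5088 of 5171 genes matched) and promoters from RefSeq. Named genes were the pair, Smarcad1, neighbours within 1 Mb, the 10 nearest genes by Euclidean distance and antisense pairs by name. Members of 12 lists with the largest differences were also named, and all listed members for crypt base stem cells. The members of 1 list are not reported here. The calculation was tested on simulated data. Python 3.11.15, pandas 2.3.3 and numpy 2.4.6 were used.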

Additional observations from a re-analysis of the deposited data

How the results depend on the processing

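Of 30 alternative values for 14 log2 levels or differences, 21 moved by less than their counting error, 9 moved by more and 0 changed sign. Of 5 alternatives for 3 counts of genes or pairs, 3 changed little. The genotype differences of Hopx and Hopxos moved by less than their counting error under every scaling tried. Centring on all listed genes put the colitis difference of Hopx at −0.45 in WT and −0.20 in KO and that of Hopxos in KO at −0.28. Centring on genes above 32 RPM gave −0.46, −0.21 and −0.29, and scaling to the listed nuclear genes gave −0.081 for Hopx in KO. Dividing by exon length moved the Hopxos to Hopx gap to −2.10 in KO control and −2.18 in KO colitis. With Pearson correlation as the measure of likeness, 3 of the 10 genes nearest to Hopx were shared, and Hopxos ranked 2nd with r of 0.99 over 4 means. With 1 span inside the other, 74 of 111 pairs (66.7%) had the same sign, against 205 of 307 (66.8%).

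No paired analysis was possible because the deposited tables hold group means, and for the same reason leaving out a replicate was not run. The library size with a count of 0 set to 1 read could not be fitted, since a share of only 0.214 to 0.667 of the low means then lay on whole-read steps. Genes in none of the tables were not analysed here. Hopxos rests on 105 to 207 reads per library, so its intervals are wider than those of Hopx.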

Other observations

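Antisense genes of other loci were read beside their partners. Zmiz1os1 was 0.47 higher in KO than in WT control, against 0.09 for Zmiz1. Uchl1os (−1.35) and Prss23os (−1.75) were lower in WT colitis together with Uchl1 (−1.04) and Prss23 (−1.53). Slfn5os (1.03) and Zeb2os (0.84) were higher in WT colitis together with Slfn5 (1.24) and Zeb2 (0.47). Partners had the same sign of the colitis change in WT in 16 of the 17 named pairs. The same held in 118 of the 122 pairs with at least 20% exon overlap (96.7%). With less exon overlap it held in 134 of 167 pairs (80.2%), and in 27 of the 43 among them without any. Reads from overlapping exons can belong to either gene, and their part in these shares was not tested. If 2 listed genes were unrelated, the share would be 50.3%.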
